A study of Mus musculus with 9 samples.

Results

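The genes described here are 10 activity genes of cultured mouse neural stem cells: the zinc finger factor genes Egr1, Egr2 and Egr3, the orphan nuclear receptor genes Nr4a1, Nr4a2 and Nr4a3, the synaptic gene Arc, the immediate early response genes Ier2 and Ier5, and the phosphatase gene Dusp1. They were selected by symbol from an expression table of 23420 gene symbols, and all 10 were found and passed the filter on low values. The symbols were picked with earlier results of these same libraries known, among them lower values of several immediate early genes with NAT than with DMSO. The comparison of NAT with DMSO is therefore given as a description of the 10 genes, with the standard error of each difference but with no test of any of them; counts of genes past a threshold are printed there only beside the same share of all genes.

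The cells were wild-type C57BL/6J neural stem cells, dissected from the hippocampus of 2-day-old mice, dissociated with trypsin and grown in culture. For differentiation, all 3 groups were then kept in a drop-out medium that lacked the mitogens bFGF and EGF. They received 3 µM NAT, which the labels describe as a new small molecule and whose structure they do not give, 3 µM P7C3-A20, a proneurogenic carbazole compound under which more newborn hippocampal neurons survive, or the vehicle DMSO. Each group had 3 libraries, called biological replicates in the labels. Whether separate cultures or animals stand behind them is not stated, and the p-values below measure only the spread between these libraries, which may be technical. The time under treatment is not given in the sources used here.

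Immediate early genes are transcribed within minutes of a stimulus, without new protein synthesis. Growth factors act on them through the ERK kinases and serum response factor, which binds CArG boxes, and calcium and cAMP act through CREB, which binds the cAMP response element. Their RNAs are short-lived, so their levels follow recent signalling. In the brain they are best known as markers of neuronal activity, and in dividing cells they also respond to mitogens and to handling.

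The promoters of several members carry these elements, which is why their sequences are shown here. RefSeq start sites (GRCm38.p6) were matched by symbol, and those of 6 of the 10 members were used. Member starts on a single excluded chromosome were left out beforehand. Egr1, Egr3, Arc and Ier2 were not among the 6, which does not show that they lack a listed start. The 250 bases upstream of each start used were searched on both strands. The motif TGACG, the core of the cAMP response element, had 4 matches upstream of each of the 3 Nr4a genes. Among 32851 upstream windows of the same length, 17.8% held at least 1 match and 0.137% held at least 4, a number picked after the Nr4a counts were seen. The windows below run 5′ to 3′ on the strand of the gene, chr15:101266596-101266845 (+) for Nr4a1, chr2:57124004-57124253 (-) for Nr4a2 and chr4:48045055-48045304 (+) for Nr4a3, and capitals mark TGACG or its reverse complement CGTCA.
Nr4a1: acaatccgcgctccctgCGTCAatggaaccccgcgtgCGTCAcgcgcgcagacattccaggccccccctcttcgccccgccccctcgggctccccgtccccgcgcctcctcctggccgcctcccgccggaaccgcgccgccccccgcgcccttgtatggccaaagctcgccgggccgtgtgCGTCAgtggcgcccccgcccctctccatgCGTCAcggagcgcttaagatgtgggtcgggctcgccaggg
Nr4a2: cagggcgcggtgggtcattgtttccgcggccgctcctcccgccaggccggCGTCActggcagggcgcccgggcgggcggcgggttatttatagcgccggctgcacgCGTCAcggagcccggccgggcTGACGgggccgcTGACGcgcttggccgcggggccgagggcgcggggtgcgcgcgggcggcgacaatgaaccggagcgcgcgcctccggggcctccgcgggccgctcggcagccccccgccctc
Nr4a3: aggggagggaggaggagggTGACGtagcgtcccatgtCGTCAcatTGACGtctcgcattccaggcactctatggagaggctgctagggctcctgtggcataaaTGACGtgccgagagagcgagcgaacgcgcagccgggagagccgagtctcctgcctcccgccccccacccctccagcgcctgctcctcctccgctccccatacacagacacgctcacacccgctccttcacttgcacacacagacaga

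Egr2 had 5 listed starts, and the windows of 4 of them held a CArG box, which was present in 1.47% of all windows. The windows of 3 of these starts overlap and hold the same box. The window of the third start, chr10:67537619-67537868 (+), is shown with the CArG box in capitals, 72 bases before the start; it also held 2 matches to TGACG. Dusp1 was the only one of the 6 members whose window held the full palindrome TGACGTCA, found in 1.55% of all windows. That palindrome begins 143 bases before the Dusp1 start in chr17:26508473-26508722 (-), where capitals mark TGACG on either strand and the palindrome counts as 2 overlapping matches.
Egr2: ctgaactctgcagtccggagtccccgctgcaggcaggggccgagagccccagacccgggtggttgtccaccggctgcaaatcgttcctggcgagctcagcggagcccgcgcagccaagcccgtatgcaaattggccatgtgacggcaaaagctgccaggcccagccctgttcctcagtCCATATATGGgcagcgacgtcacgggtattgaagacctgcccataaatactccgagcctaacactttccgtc
Dusp1: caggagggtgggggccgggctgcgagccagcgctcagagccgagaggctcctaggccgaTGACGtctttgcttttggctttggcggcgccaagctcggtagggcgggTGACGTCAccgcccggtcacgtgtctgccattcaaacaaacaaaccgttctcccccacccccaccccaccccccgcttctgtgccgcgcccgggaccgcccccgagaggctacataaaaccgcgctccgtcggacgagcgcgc

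The motif GCGNGGGCG, which Egr proteins bind, matched once upstream of Nr4a1 and once upstream of Nr4a2, and in 4.70% of all windows. AAAGGTCA, the element that Nr4a proteins bind as monomers, matched in none of the windows of the 6 members and in 1.34% of all windows. The window of Ier5 held none of the 5 motifs searched. A match describes the letters in these windows and shows nothing about binding.

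The libraries held 12610526 to 13419458 recovered reads with NAT, 15291621 to 16821164 with P7C3-A20 and 11387644 to 13514399 with DMSO. All 6 neural progenitor markers were detected, and their summed level was 16014 to 16409 TPM with NAT, 15492 to 16028 TPM with P7C3-A20 and 16764 to 17213 TPM with DMSO. All 5 astrocyte markers were detected and summed to 4677 to 4822 TPM with NAT, 4013 to 4619 TPM with P7C3-A20 and 4306 to 4556 TPM with DMSO. Of 7 microglia markers none reached 1 TPM, and Cx3cr1, C1qc and Trem2 were listed at 0 in all 9 libraries. All 6 oligodendrocyte lineage markers reached 1 TPM and summed to 3255 to 3429 TPM with NAT, 3388 to 3951 TPM with P7C3-A20 and 3422 to 3564 TPM with DMSO. All 6 neuron markers did so too, at 698 to 744, 676 to 733 and 713 to 743 TPM in the same order. The progenitor sum was lower in every NAT and every P7C3-A20 library than in every DMSO library. Fabp7 and Vim weigh most in it, with highest levels of 12411 and 3862 TPM, against at most 657 TPM for its other markers. The neuron sum is mostly Map2, with a highest level of 653 TPM against at most 51.1 TPM for the others. Such sums do not show the direction of each marker. The astrocyte sum was higher in every NAT library than in every DMSO library, and those of P7C3-A20 and DMSO overlapped. Their part in the results on the activity genes was not tested, and in bulk RNA fewer expressing cells and less RNA per cell cannot be told apart.

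Levels of the 10 genes spanned more than 2 orders of magnitude, compared here in TPM, which is scaled to gene length. Egr1, the best-known mitogen and activity sensor of the family, stood at 788 ± 25.1 TPM with NAT, 853 ± 13.6 TPM with P7C3-A20 and 796 ± 59.1 TPM with DMSO (SD, n = 3 each). It lay above 99.4% of all symbols in the mean of the 9 libraries. Ier2 was the next in every group, followed by Nr4a1 and Dusp1. With NAT, Dusp1 averaged above Nr4a1, and with P7C3-A20 and DMSO the order of their means was the opposite; their libraries overlapped with NAT and with DMSO but not with P7C3-A20. Egr2 and Ier5 came after them, then Egr3 and Nr4a2, then Arc, and Nr4a3 was the lowest in all 3 groups at 1.84 to 2.79 TPM. Neighbours in this order whose libraries overlapped were Egr2 and Ier5 and also Nr4a2 and Egr3, both with NAT only.

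**Figure D1:**
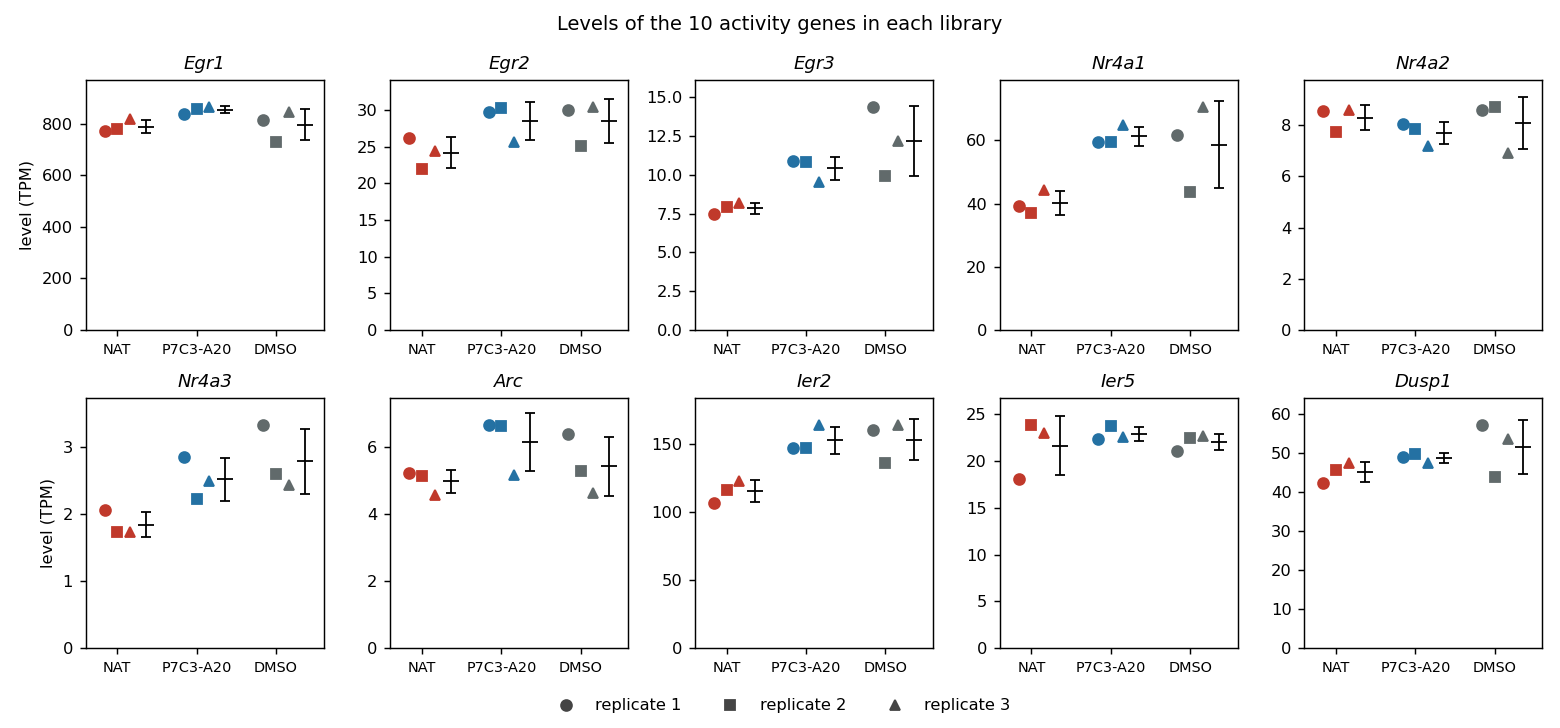
Level in TPM (vertical axis from 0, linear) of each of the 10 genes in every library, by group on the horizontal axis. Symbols stand for replicates, and the bar at the right of each group is its mean ± SD (n = 3). The NAT libraries lie below all other libraries for Egr3, Nr4a3 and Ier2, and DMSO replicate 2 is the lowest DMSO library for 6 genes.

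Among the Egr genes, Egr3 stood lowest with NAT. Egr3, which in the brain is known as a regulator of Arc and in muscle as a factor for muscle spindles, was at 7.46, 7.91 and 8.17 TPM with NAT, at 10.9, 10.8 and 9.55 TPM with P7C3-A20 and at 14.4, 9.90 and 12.2 TPM with DMSO. No NAT library reached the lowest of the other 6. On the log2(TPM + 1) scale the difference between NAT and DMSO was -0.56 ± 0.11 (SE). These values rest on 49 to 55 reads per NAT library, 78 to 95 per P7C3-A20 library and 60 to 94 per DMSO library.

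Egr2, known for hindbrain patterning and for Schwann cell myelination, was at 26.2, 22.0 and 24.4 TPM with NAT, at 29.8, 30.3 and 25.6 TPM with P7C3-A20 and at 30.0, 25.1 and 30.5 TPM with DMSO. The highest NAT library lay above the lowest library of each other group, so the groups overlapped. The difference between NAT and DMSO was -0.23 ± 0.09 in log2. Egr1 was at 771, 777 and 817 TPM with NAT, at 839, 855 and 866 TPM with P7C3-A20 and at 814, 730.0 and 844 TPM with DMSO. The DMSO libraries of Egr1 lay on both sides of the NAT libraries, and the difference was -0.01 ± 0.05. Quantile normalization turned its sign, to 0.01.

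Since Egr1 made up most of the family's RNA, the summed Egr level followed it. Egr1 held 96.1% ± 0.244 of the summed TPM of Egr1, Egr2 and Egr3 with NAT, 95.6% ± 0.412 with P7C3-A20 and 95.1% ± 0.298 with DMSO. The share of Egr3 was 0.956% ± 0.0276 with NAT, 1.17% ± 0.0959 with P7C3-A20 and 1.45% ± 0.200 with DMSO (SD, n = 3 each). Shares of Egr3 ranged from 0.926% to 0.981% in NAT libraries, 1.06% to 1.24% in P7C3-A20 libraries and 1.29% to 1.68% in DMSO libraries, so these shares did not overlap. They depend on Egr1 as well, and the Egr3 levels themselves overlapped between P7C3-A20 and DMSO. Counting error of Egr3 alone came to a coefficient of variation of 13.8% with NAT, 10.7% with P7C3-A20 and 11.2% with DMSO.

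The Nr4a genes differed among themselves. Nr4a1 (Nur77), a nuclear receptor that acts without a known obligatory ligand, was at 39.2, 37.0 and 44.4 TPM with NAT, at 59.4, 59.6 and 64.7 TPM with P7C3-A20 and at 61.7, 43.6 and 70.7 TPM with DMSO. Of the DMSO libraries only replicate 2 fell within the NAT range, and every P7C3-A20 library lay above every NAT library. The difference between NAT and DMSO was -0.51 ± 0.14 in log2. Its reads numbered 450 to 504 with NAT, 847 to 924 with P7C3-A20 and 462 to 880 with DMSO.

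Nr4a3 (Nor1), the least abundant member, was at 2.06, 1.73 and 1.74 TPM with NAT, at 2.86, 2.22 and 2.49 TPM with P7C3-A20 and at 3.33, 2.60 and 2.43 TPM with DMSO. All NAT libraries lay below all others, but they held only 15 to 18 reads of the gene each, against 26 to 31 with P7C3-A20 and 21 to 29 with DMSO. Counting error alone then comes to a coefficient of variation of 24.7% with NAT, 18.9% with P7C3-A20 and 20.3% with DMSO. The difference between NAT and DMSO was -0.41 ± 0.14 in log2 with 1 TPM added, which understates changes of such low genes, and -0.56 with 0.1 TPM added.

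Nr4a2 (Nurr1), which midbrain dopamine neurons need, was at 8.56, 7.73 and 8.61 TPM with NAT, at 8.05, 7.84 and 7.20 TPM with P7C3-A20 and at 8.61, 8.73 and 6.90 TPM with DMSO. The 3 groups overlapped, and the difference between NAT and DMSO was 0.04 ± 0.10. Nr4a2 held 16.5% ± 0.749 of the family's summed TPM with NAT, 10.8% ± 0.966 with P7C3-A20 and 12.1% ± 3.65 with DMSO. The sum of the 3 Nr4a genes was 50.3 ± 4.19 TPM with NAT, 71.5 ± 2.55 TPM with P7C3-A20 and 69.5 ± 13.0 TPM with DMSO. The upstream windows of Nr4a1, Nr4a2 and Nr4a3 printed above hold the same number of TGACG matches. Their part in these levels was not tested.

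Among the effector and signalling genes, Ier2 stood apart in the NAT libraries. Ier2, a nuclear protein gene induced by growth factors, was at 107, 116 and 123 TPM with NAT, at 147, 147 and 164 TPM with P7C3-A20 and at 160.0, 136 and 164 TPM with DMSO. The highest NAT library lay below the lowest library of each other group, and the difference between NAT and DMSO was -0.41 ± 0.07 in log2. Ier2 had 755 to 868 reads with NAT, 1290 to 1436 with P7C3-A20 and 886 to 1255 with DMSO. Its sequence is GC-rich, at 60.9% of the longest GENCODE transcript, against a median of 49.7% for the tested genes.

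Dusp1, which removes phosphate from the MAP kinases p38, JNK and ERK and so closes a feedback loop, was at 42.3, 45.8 and 47.5 TPM with NAT, at 48.9, 49.8 and 47.4 TPM with P7C3-A20 and at 57.2, 44.0 and 53.6 TPM with DMSO. DMSO replicate 2 lay within the NAT range, and the difference between NAT and DMSO was -0.18 ± 0.08 in log2. Leaving out DMSO replicate 1 gave -0.10, and leaving out DMSO replicate 2 gave -0.29. Arc, whose protein drives AMPA receptor endocytosis at synapses, was at 5.21, 5.13 and 4.57 TPM with NAT, at 6.65, 6.63 and 5.16 TPM with P7C3-A20 and at 6.37, 5.27 and 4.62 TPM with DMSO. All 3 groups overlapped for Arc, at -0.10 ± 0.13 for NAT against DMSO, which ran from -0.19 without DMSO replicate 3 to 0.01 without DMSO replicate 1.

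Ier5, which is linked to heat shock factor HSF1 and the phosphatase PP2A, was at 18.0, 23.8 and 23.0 TPM with NAT, at 22.3, 23.7 and 22.5 TPM with P7C3-A20 and at 21.0, 22.4 and 22.6 TPM with DMSO. NAT replicate 1 was the lowest of all 9 libraries and NAT replicate 2 the highest. The difference between NAT and DMSO was -0.03 ± 0.09, and without NAT replicate 1 it was 0.09.

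Over the 10 genes, 9 had a lower fitted mean with NAT than with DMSO, against 36.5% of the 13839 genes tested. Their median log2 fold change was -0.20, and that of all tested genes was 0.03. For Egr3, Nr4a3 and Ier2, 3 of the 10, the highest NAT level lay below the lowest DMSO level, as it did for 4.89% of all tested genes. No member was called by limma at an adjusted p under 0.05, where 0.0289% of all genes were called. Since the members were picked with this comparison known, these counts describe them and support nothing further.

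DMSO replicate 2 held the lowest level within its group for 6 of the 10 members, Egr1, Egr2, Egr3, Nr4a1, Ier2 and Dusp1, and for 33.8% of all tested genes. The median deviation of the 10 members from their group mean was -0.14 in log2 in that library, 0.09 in DMSO replicate 1 and 0.05 in DMSO replicate 3. Without it, the NAT libraries lay below the remaining DMSO libraries for 6 members, those of the preceding list except Egr1, plus Nr4a3, and for 8.27% of tested genes, a count added after the data were seen. The differences between NAT and DMSO without it were -0.69 ± 0.10 for Egr3, -0.71 ± 0.08 for Nr4a1 and -0.49 ± 0.06 for Ier2, and the count of members called was 3, where 0.0795% of all genes were called. DMSO replicate 2 is the DMSO library nearest to the NAT values for these 3 genes, so these too are descriptions.

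**Figure D2:**
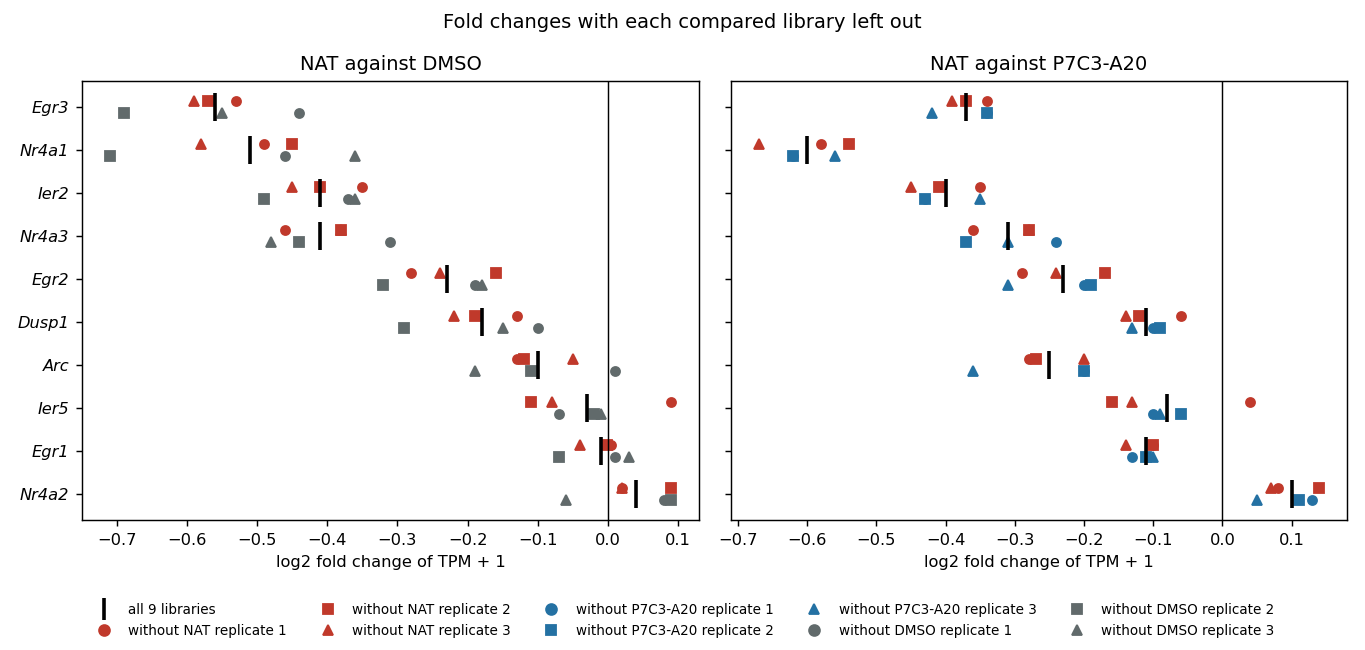
Log2 fold change of TPM + 1 (horizontal axes) of each gene (vertical axis) for NAT against DMSO on the left and NAT against P7C3-A20 on the right. Black bars use all 9 libraries, and coloured symbols leave out the named library. On the left, Nr4a1 ranges from -0.71 without DMSO replicate 2 to -0.36 without DMSO replicate 3; on the right it ranges from -0.67 to -0.54.

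With P7C3-A20, the libraries of all 10 activity genes overlapped those with DMSO. Nr4a1 averaged 61.3 ± 3.00 TPM with P7C3-A20 and 58.7 ± 13.8 TPM with DMSO, and Ier2 averaged 153 ± 9.64 TPM with P7C3-A20 and 153 ± 15.1 TPM with DMSO (SD, n = 3 each). Of all tested genes, 7.49% were lower and 13.1% higher without overlap. No member was called by limma, where 0.0217% of all genes were, none had an unadjusted p under 0.05, where 15.9% of all genes did, and voom called none, where it called 1.95% of all genes.

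The intervals show which sizes of change these libraries still allow. The log2 difference for Ier2 had a 95% interval of -0.17 to 0.16 and that for Nr4a1 one of -0.22 to 0.39, with limma adjusted p-values of 0.983 and 0.789. Egr3 was at -0.19 ± 0.11 (-0.44 to 0.06) with an adjusted p of 0.431, and Egr1 at 0.10 ± 0.05 (-0.01 to 0.21) with an adjusted p of 0.339. Egr3 was at -0.07 without DMSO replicate 1 and at -0.32 without DMSO replicate 2, and Egr1 at 0.04 without DMSO replicate 2. Nr4a1 ran from -0.11 without DMSO replicate 2 to 0.23 without DMSO replicate 3. With each library's trend with GC content removed, Egr1 was at 0.01. Of the 10 members, 5 had a negative log2 fold change, against 44.8% of all genes, and the count was 3 with DMSO replicate 1 left out and 7 with DMSO replicate 2 left out. The median log2 fold change was 0.00 for the members and 0.01 for all genes.

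At the same dose of 3 µM, NAT and P7C3-A20 were set side by side. This comparison shares the NAT libraries with the one that was known when the members were picked. Its counts and p-values for the members therefore describe them and are no independent evidence. The comparison uses none of the DMSO libraries, so DMSO replicate 2 bears on it only through the shared estimate of spread. The NAT libraries all lay below the P7C3-A20 libraries for 5 members, Egr1, Egr3, Nr4a1, Nr4a3 and Ier2, as they did for 8.35% of all tested genes. Nr4a1 averaged 40.2 ± 3.82 TPM with NAT, against 61.3 ± 3.00 TPM with P7C3-A20, a log2 difference of -0.60 ± 0.14 (-0.90 to -0.29). Ier2 averaged 115 ± 8.05 TPM with NAT, against 153 ± 9.64 TPM with P7C3-A20, a log2 difference of -0.40 ± 0.07 (-0.56 to -0.24).

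Neither passed the adjustment over all 13839 genes, as both had a limma adjusted p of 0.168. In this comparison limma called no gene at all (0.00%). Of the 10 members, 6 had an unadjusted p under 0.05, all lower with NAT, against 5.89% of all genes in that direction. That count and the calls below use the NAT libraries known when the members were picked, so they are descriptions. When the 6 compared libraries were fitted alone, limma called Nr4a1 at an adjusted p of 0.0376, where 0.0361% of all genes were called, and Ier2 had one of 0.137. Voom on the recovered reads called Nr4a1 at -0.64 ± 0.10 and Ier2 at -0.43 ± 0.06, with adjusted p-values of 0.00248 and 0.00122, where it called 2.18% of all genes. Over all alternatives the adjusted p ran from 0.00248 to 0.449 for Nr4a1 and from 0.00122 to 0.449 for Ier2.

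Among the other members, Egr3 was at -0.37 ± 0.11 (-0.62 to -0.12) for NAT against P7C3-A20 with an adjusted p of 0.208, and Nr4a3 at -0.31 ± 0.14 (-0.61 to -0.01) with an adjusted p of 0.311. Egr2, at -0.23 ± 0.09 (-0.43 to -0.03), and Egr1, at -0.11 ± 0.05 (-0.22 to -0.01), had adjusted p-values of 0.268 and 0.296. Arc was at -0.25 ± 0.13 and Dusp1 at -0.11 ± 0.08, and the intervals of both held 0. Dusp1 was at -0.06 without NAT replicate 1. Ier5 was at -0.08 (-0.28 to 0.12) and Nr4a2 at 0.10 (-0.12 to 0.31), with adjusted p-values of 0.678 and 0.654, and Nr4a2 was at 0.05 without P7C3-A20 replicate 3. In all, 9 of the 10 had a negative log2 fold change, against 46.0% of all genes, with a median of -0.24 for the members and 0.01 for all genes.

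**Figure D3:**
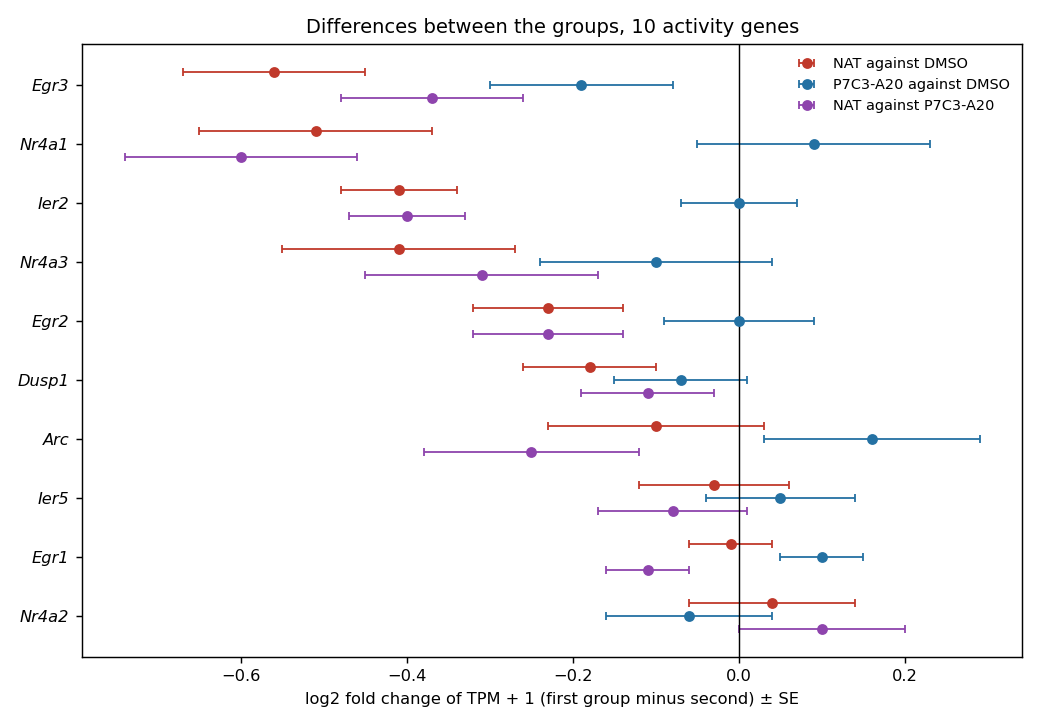
Log2 fold change of TPM + 1 (horizontal axis, first group minus second) with its standard error (bars) for each gene (vertical axis), in 3 comparisons marked by colour, all from 1 fit of 9 libraries. Ier2 lies at -0.41 where NAT is set against DMSO, at -0.40 where NAT is set against P7C3-A20, and at 0.00 where P7C3-A20 is set against DMSO.

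Each gene's deviation from its mean over the 9 libraries was set against GC content, for genes with a mean of at least 5 TPM. The slope was -0.066, 0.004 and -0.031 log2 per 10 percentage points in the NAT libraries. It was 0.016, 0.038 and 0.122 in the P7C3-A20 libraries and -0.056, -0.023 and -0.004 in the DMSO libraries. Of the 10 members, 8 lay above the median GC content of the tested genes, and Ier2, Arc, Egr1 and Nr4a1 each lay above at least 86.0% of these genes. A spline with GC content, fitted in each library to all tested genes of known GC content, was then removed. NAT against P7C3-A20 was at -0.32 for Ier2, -0.54 for Nr4a1, -0.36 for Egr3 and -0.05 for Egr1 after that. NAT against DMSO was then at -0.43 for Ier2, -0.54 for Nr4a1 and -0.59 for Egr3.

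Profiles over the 9 libraries were compared between the members and all other genes. For each member the 3 nearest of 11358 genes with a mean of at least 5 TPM were found by the root mean square difference between centred log2(TPM + 1) profiles. The nearest to Ier2 were Fos, the AP-1 subunit gene (0.086), the lipid transporter gene Mfsd2a (0.086) and Zfp36 (0.096), whose protein destabilises AU-rich mRNAs. The spread of Ier2 itself was 0.21 on the same scale. Egr3 was nearest to Fos (0.13), then to Ier2 and Zfp963 (both 0.14), with a spread of its own of 0.27. Nr4a1 was nearest to Ier2 and Zfp36 (both 0.14) and to its fellow activity gene Egr4 (0.16), with a spread of 0.32.

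For the other 7 members, none of the 3 nearest genes was a member or stood in the gene lists used here; those of Egr1, for example, were Sgsm1, Sarm1 and Gripap1 (0.025 to 0.033, against a spread of 0.076). The nearest genes of all members were 27 distinct genes, of which 4, Fos, Ier2, Zfp36 and Egr4, were members or listed genes, as were 73 of the 11358 candidates. Members and lists were chosen with earlier results of these same libraries known, so this share is no independent evidence. Profiles of genes that vary little lie close to many others, so these distances describe likeness in these libraries only.

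**Figure D4:**
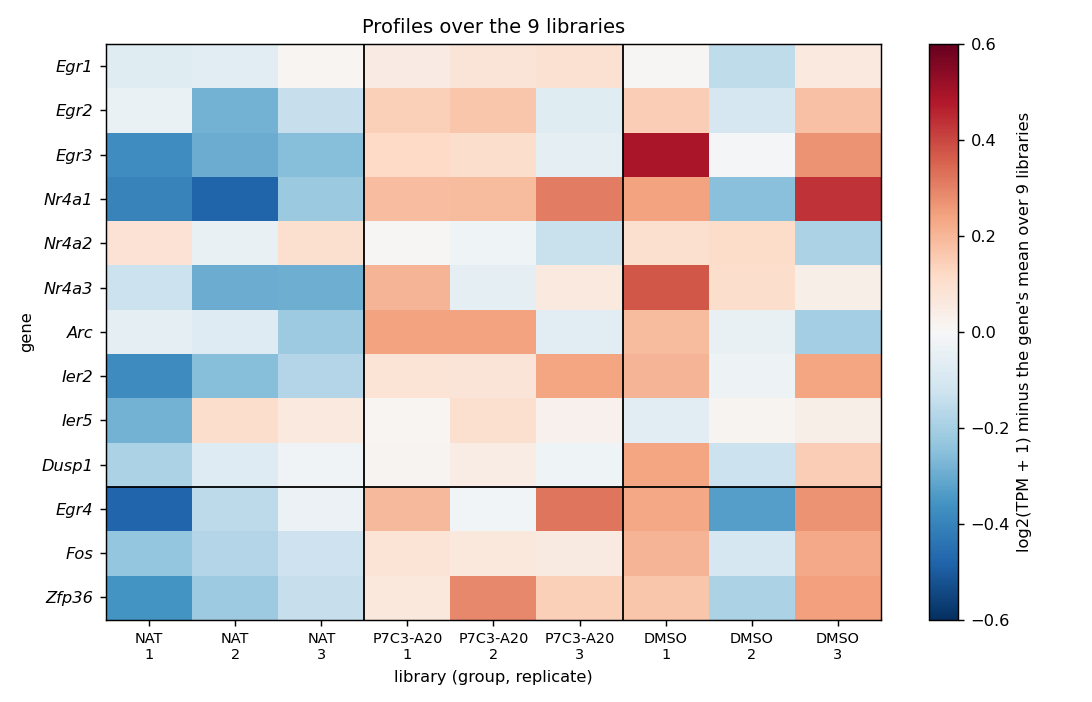
Log2(TPM + 1) minus the gene's mean over the 9 libraries (colour, red higher and blue lower) for the 10 members above the line and Egr4, Fos and Zfp36 below it (vertical axis), by library (horizontal axis). Nr4a1, Ier2, Egr3 and the 3 added genes are blue in all NAT libraries, Egr4 only slightly in NAT replicate 3, and DMSO replicate 2 is bluer than the other DMSO libraries for Nr4a1, Egr4 and Zfp36.

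Genes upstream of the members were counted next. Among 24 kinases and transcription factors of the ERK, SRF and CREB routes, all tested, limma called none in any comparison. For P7C3-A20 against DMSO, 2 were lower and 2 higher at an unadjusted p under 0.05 by limma, where 15.9% of all genes passed in either direction. Voom called Creb1 and Elk4 lower for P7C3-A20 against DMSO, where it called 1.95% of all genes. It called Map2k2 lower for NAT against P7C3-A20, where it called 2.18% of all genes. For NAT against DMSO the median log2 fold change of the 24 genes was 0.05, with 6 negative, against 36.5% of all genes. Mef2a, an activity-dependent factor, averaged 44.9 ± 1.51 TPM with NAT and 39.3 ± 1.09 TPM with DMSO (0.19 ± 0.06, limma adjusted p 0.300). The ribosomal S6 kinase genes Rps6ka1 and Rps6ka3 were at 0.18 ± 0.07 and 0.15 ± 0.06, with adjusted p-values of 0.389 and 0.387. Elk4, a partner of serum response factor, averaged 39.3 ± 1.17 TPM with P7C3-A20 and 44.8 ± 1.13 TPM with DMSO (-0.19 ± 0.05, adjusted p 0.158).

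Of 13 partners and paralogs of the members, 11 were tested, and neither limma nor voom called any in the 3 comparisons. At an unadjusted p under 0.05 by limma, 1 was higher for P7C3-A20 against DMSO, where 15.9% of all genes passed in either direction. For NAT against P7C3-A20, 1 was lower, where 5.89% of all genes were. Nab2, a corepressor that Egr proteins recruit and induce, averaged 21.3 ± 0.711 TPM with NAT and 23.9 ± 0.217 TPM with DMSO, with no overlap (-0.16 ± 0.05, limma adjusted p 0.313). Dusp6, a phosphatase of ERK, was at 0.09 ± 0.04 for NAT against DMSO with an adjusted p of 0.421, and Ier3 at 0.17 ± 0.08 with an adjusted p of 0.444. Ier5l, the paralog of Ier5, averaged 33.1 ± 3.67 TPM with P7C3-A20 and 27.6 ± 3.49 TPM with DMSO (0.25 ± 0.10, adjusted p 0.263).

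Of 23 other immediate early genes, 22 were tested. For NAT against DMSO 15 were negative, against 36.5% of all genes, and 7 positive, with a median log2 fold change of -0.11. Limma called 2 of the 22, both lower, where it called 0.0289% of all genes. These were the AP-1 subunit gene Fosb (-0.79 ± 0.10, adjusted p 0.0234) and the antiproliferative gene Btg2 (-0.38 ± 0.04, adjusted p 0.0142). Leaving out NAT replicates 1, 2 or 3 or DMSO replicates 1 or 3 took the adjusted p of Fosb to 0.0708 to 0.130. That of Btg2 became 0.0648 to 0.0906 without NAT replicates 2 or 3 or DMSO replicates 1 or 3. Jun was at -0.23 ± 0.06 with an adjusted p of 0.225. Voom called 4 lower, Btg2, Fos, Fosb and Jun, among 29 genes called in all (0.210%).

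For P7C3-A20 against DMSO, limma called none of these 22 genes. At an unadjusted p under 0.05, 5 were lower and 1 higher, where 15.9% of all genes passed in either direction. Of the 22, 10 were negative, against 44.8% of all genes, with a median of 0.01. Voom called Btg2, Fosb and Klf6 lower, among 270 genes called in all (1.95%). For NAT against P7C3-A20, limma called none. At an unadjusted p under 0.05, 9 were lower, where 5.89% of all genes were, and 1 was higher. Of the 22, 14 were negative, against 46.0% of all genes, with a median of -0.11. Voom called 8 lower, Btg2, Cyr61, Fos, Fosb, Gadd45g, Jun, Junb and Zfp36, among 301 genes called in all (2.18%). The list was drawn up with earlier results of these libraries known, so its direction is no independent evidence.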

How the data were processed

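The authors deposited TPM values, transcript levels scaled by gene length to the same total in every library, in 9 columns, 1 per library. Per the labels' protocols, libraries were made with an Illumina TruSeq RNA kit. Bowtie 0.12.2 and the builds mm8 and mm9 are named, without a role, per the submitters' processing notes. For the counter, annotation and strand handling the sources used here give nothing, so reads of antisense or overlapping genes cannot be told apart.

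Whole reads were recovered from the steps of low TPM values for 19300 of 19302 genes (99.99%, tolerance 0.001). They give the depth and entered voom only. Groups were compared with limma-trend (limma 3.58.1, R 4.3.3) on log2(TPM + 1) over 13839 genes with at least 1 TPM in at least 3 libraries. A single fit over the 9 libraries had group as its sole factor; tests were two-sided, with Benjamini-Hochberg adjustment over all genes and a threshold of 0.05. Each log2 fold change carries the standard error of that fit and, outside NAT against DMSO, a 95% interval. The fit was first run on simulated data, where it called 43.3% of 1.25-fold, 83.6% of 1.5-fold and 98.5% of 2.0-fold changes for NAT against DMSO. The changes were set in 200 genes, only ones of higher read counts, so genes as low as Nr4a3 were not covered. The simulated spread was smaller than that of most members with DMSO, Nr4a1 above all. The shares called depend on that spread and on the number of changed genes, so they do not give the power in these libraries. Intervals and counting errors cover counting or library spread only.

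The members and the gene lists were chosen with earlier results of these data known. From each list, the 3 genes of lowest p for NAT against DMSO and the 1 of lowest p for P7C3-A20 against DMSO were named; other genes were named after their values were seen. GC content came from the longest GENCODE M21 transcript of each symbol, found for 98.4% of the names. Alternatives were quantile normalization, a pseudocount of 0.1 TPM, no filter or a minimum of 5 TPM, the replicate number as a block, robust empirical Bayes, the 6 compared libraries alone, removal of each library's GC trend (a spline with 5 degrees of freedom), voom on recovered reads and each library left out. Tables were handled with pandas 2.3.3 and numpy 2.4.6 under Python 3.11.15 and drawn with matplotlib 3.10.9.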

Additional observations from a re-analysis of the deposited data

How the results depend on the processing

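The count of members called was 0 in each of the 3 comparisons. For NAT against DMSO it was 2 by voom, where 0.210% of all genes were called, and 0 to 3 with a library left out, the 3 without DMSO replicate 2, where 0.0795% were; these counts use the values that chose the members. For NAT against P7C3-A20, which shares the NAT libraries with that choice, it was 1 with the 6 compared libraries alone (0.0361% of all genes) and 2 by voom (2.18%). For P7C3-A20 against DMSO it was 0 in all alternatives, where 0 to 10 of all genes were called outside voom and 270 (1.95%) by voom. The count of negative log2 fold changes for P7C3-A20 against DMSO was 3 to 7 with a library left out. Signs turned for the following. For NAT against DMSO, Egr1 was at 0.01 with quantile normalization and at -0.07 to 0.03 with a library left out, Ier5 at -0.11 to 0.09, Arc at -0.19 to 0.01 and Nr4a2 at -0.06 to 0.09. For P7C3-A20 against DMSO, Egr2 was at -0.01 with quantile normalization, -0.03 with the GC trend removed, -0.01 by voom and -0.08 to 0.08 with a library left out, Ier2 at -0.09 to 0.05, Dusp1 at -0.18 to 0.0040 and Nr4a1 at -0.11 to 0.23. For NAT against P7C3-A20, Ier5 was at -0.16 to 0.04. The cause was not tested. Other log2 fold changes kept their sign, 142 of 149 alternative values for NAT against DMSO, 148 of 149 for NAT against P7C3-A20 and 137 of 149 for P7C3-A20 against DMSO.

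Libraries of the same number did not deviate together, with correlations across genes of -0.06 to 0.07 over 9 pairs. With the replicate block, 0 members were called in each comparison, and 9, 5 and 9 had a negative log2 fold change for NAT against DMSO, P7C3-A20 against DMSO and NAT against P7C3-A20. The minimum of 5 TPM left out Nr4a3. Depth limits Nr4a3, Egr3 and Arc most, with as few as 15, 49 and 64 reads in a library.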

Other observations

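Genes that neurons induce later, after the immediate early genes, were counted as a list. Of 16 such genes 14 were tested, and neither limma nor voom called any in the 3 comparisons. At an unadjusted p under 0.05 by limma, 2 were lower and 1 higher for P7C3-A20 against DMSO, where 15.9% of all genes passed in either direction. The median log2 fold change was -0.04 for NAT against DMSO and -0.02 for P7C3-A20 against DMSO. Bdnf, the neurotrophin gene, averaged 2.95 ± 0.151 TPM with NAT, 2.72 ± 0.109 TPM with P7C3-A20 and 3.73 ± 0.383 TPM with DMSO (SD, n = 3 each). All NAT and P7C3-A20 libraries lay below all DMSO libraries, at -0.26 ± 0.11 (limma adjusted p 0.402) with NAT and -0.34 ± 0.11 (adjusted p 0.192) with P7C3-A20, comparisons that share the DMSO libraries. Rgs2, a regulator of G protein signalling, averaged 13.4 ± 1.22 TPM with NAT, 13.8 ± 1.81 TPM with P7C3-A20 and 16.2 ± 0.221 TPM with DMSO, and both compound groups lay below DMSO in every library. Its log2 difference from DMSO was -0.26 ± 0.09 (limma adjusted p 0.342) with NAT and -0.22 ± 0.09 (adjusted p 0.279) with P7C3-A20. Homer1, a postsynaptic scaffold gene, averaged 22.0 ± 0.931 TPM with NAT, 19.0 ± 1.75 TPM with P7C3-A20 and 20.2 ± 0.838 TPM with DMSO. Against DMSO it was at 0.12 ± 0.07 (limma adjusted p 0.528) with NAT and at -0.09 ± 0.07 (adjusted p 0.571) with P7C3-A20.

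Heat shock genes, which handling and dissociation can induce, were also measured. None of the 9 was called by limma in any comparison. Voom called Bag3 alone, higher for P7C3-A20 against DMSO, where it called 1.95% of all genes. At an unadjusted p under 0.05 by limma, 1 was higher for P7C3-A20 against DMSO, where 15.9% of all genes passed in either direction. Bag3, a co-chaperone of HSP70, averaged 50.8 ± 1.87 TPM with NAT, 50.3 ± 1.31 TPM with P7C3-A20 and 42.3 ± 2.04 TPM with DMSO. It was higher in every library of both compound groups than in every DMSO library, at 0.26 ± 0.05 (limma adjusted p 0.207) with NAT and 0.25 ± 0.05 (adjusted p 0.139) with P7C3-A20. Dnajb1 averaged 51.1 ± 1.80 TPM with NAT and 56.2 ± 3.90 TPM with DMSO (-0.13 ± 0.06, limma adjusted p 0.420). Hspa5, an endoplasmic reticulum chaperone gene, averaged 532 ± 8.03 TPM with NAT and 512 ± 8.89 TPM with DMSO (0.06 ± 0.04, adjusted p 0.567). Hspa1a, the inducible HSP70 gene, was at -0.03 ± 0.17 for NAT against DMSO and 0.06 ± 0.17 for P7C3-A20 against DMSO; it was named with its values known.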
